A study of Mus musculus with 4 samples.

Results

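The genes described here encode 8 proteins of the heart's contractile filaments, Actc1, Myl7, Myl4, Myl3, Myh6, Myh7, Tnnt2 and Tnni3, and the cardiac hormones Nppa and Nppb. They were chosen by name, as every probe set of a mouse expression array that the platform annotation gives to 1 of these 10 genes alone. That made 16 probe sets of 34945 that name 1 gene, and 10 genes of 18193. A further 2 probe sets that name both Myh6 and Myh7 were kept apart.

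Each of 4 groups had 1 array. Control embryonic stem cells carried the genotype F/F in the labels, and the other line was a Snai1 knockout, lacking a zinc-finger repressor that drives epithelial-mesenchymal transition. Embryoid bodies, stem cell aggregates that differentiate without directing factors, were started as hanging drops, then kept in suspension and taken at day 5. Teratomas, tumours of mixed tissue, grew from cells given subcutaneously, in a hind limb, to male nude mice whose age was 6 weeks, and were collected at week 6. Nude mice lack a thymus but keep other blood cells, so teratoma RNA can hold host blood, vessel and muscle RNA. How many clones, cultures or tumours stand behind each RNA is not given in the labels. With 1 array per group no difference below has a replicate check, no test was run, and fewer heart cells and less RNA per cell cannot be told apart.

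Heart muscle contracts when myosin heavy chains (Myh6, Myh7), each carrying light chains, pull on actin filaments (Actc1), and the troponin complex (Tnnt2, Tnni3) makes that pull depend on calcium. Myosin light chains are divided by chamber: Myl7 and Myl4 are atrial in the adult, while Myl3 is ventricular and is shared with slow skeletal fibres. In the mouse heart Myh7 precedes Myh6 in the ventricle and gives way to it around birth. Nppa and Nppb encode natriuretic peptides, which lower blood volume and are switched on in the working muscle of the embryonic heart. Actc1, Myl4 and Tnnt2 are also made by embryonic skeletal muscle and Actc1 at low level by smooth muscle, so the set as a whole is no proof of heart cells. Myl7, Myh6, Tnni3, Nppa and Nppb are the more heart-restricted members.

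The start-site sequences of 4 members are shown because they hold a motif tied to muscle genes or to Snai1. The CArG box, read by serum response factor in many muscle genes, was found on either strand in the 250 bases before the start site of Actc1, Myl7 and Myl3. It occurred in 1.47% of 32851 such windows in the RefSeq table (GRCm38.p6) and in 3 of the 12 windows of the 10 members. The E-box CAGGTG, with its other strand CACCTG, to which Snail proteins bind, was in windows of Myl3, Tnnt2 and Myh7, against 17.2% of all windows. GATA sites (AGATAA or AGATAG, also with T as the first base) were in windows of 5 members against 26.5% of all windows, the NKX2-5 core AAGTG in windows of 5 members against 40.7%, and TATAAA in windows of 2 members against 12.4%. All motifs were searched on both strands, matches of different motifs did not overlap in the members' windows, and a match describes letters only. In each window below, read 5′ to 3′ on the gene's strand, capitals mark the CArG box or the Snail E-box.
Actc1, chr2:114052876-114053125, minus strand: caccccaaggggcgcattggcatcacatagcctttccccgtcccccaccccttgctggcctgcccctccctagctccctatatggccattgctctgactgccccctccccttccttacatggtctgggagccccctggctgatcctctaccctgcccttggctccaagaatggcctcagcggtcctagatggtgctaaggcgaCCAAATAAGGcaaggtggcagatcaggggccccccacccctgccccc
Myl7, chr11:5898783-5899032, minus strand: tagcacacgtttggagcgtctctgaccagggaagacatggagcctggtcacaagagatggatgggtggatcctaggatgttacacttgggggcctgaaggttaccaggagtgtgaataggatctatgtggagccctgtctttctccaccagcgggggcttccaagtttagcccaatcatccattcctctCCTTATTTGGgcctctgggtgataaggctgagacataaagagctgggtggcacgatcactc
Myl3, chr9:110763428-110763677, plus strand: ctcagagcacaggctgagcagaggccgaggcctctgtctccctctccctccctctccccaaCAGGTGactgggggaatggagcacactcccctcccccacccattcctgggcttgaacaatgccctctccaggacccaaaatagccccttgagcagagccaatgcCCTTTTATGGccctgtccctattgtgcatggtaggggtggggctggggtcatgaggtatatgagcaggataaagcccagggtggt
Tnnt2, chr1:135836084-135836333, plus strand: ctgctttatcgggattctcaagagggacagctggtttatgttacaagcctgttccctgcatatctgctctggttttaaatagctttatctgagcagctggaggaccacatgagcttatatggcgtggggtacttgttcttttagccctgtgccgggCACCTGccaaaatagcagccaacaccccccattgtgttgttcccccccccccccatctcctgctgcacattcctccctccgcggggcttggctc
In Actc1 the CArG box began 47 bases before the start site, in Myl7 61 bases and in Myl3 85 bases before it. In Tnnt2 the E-box began 94 bases before the start site, and in Myl3 189 bases before it. Myh7 held its E-box 62 bases before the start site in 1 of its 2 windows, which is not printed because it overlaps the transcript of the other start site. As the values below show, windows with a CArG box belonged to Actc1 and Myl7, at least 2-fold lower in the knockout in both tissues. They also belonged to Myl3, which was under 2-fold in embryoid bodies and below the floor on both teratoma arrays. Tnnt2 and Myh6, also at least 2-fold lower in both tissues, had no CArG box in their windows.

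Values are log2 expression from RMA, which subtracts background, normalizes and combines the probes of a probe set. Where a gene had several probe sets, the one brightest on average is reported and the others are given beside it, and levels are compared between arrays, never between genes. A value was read as measured when it reached the floor of its array, the median of the non-control probe sets, which was 4.71 (control) and 4.73 (knockout) for embryoid bodies and 5.08 and 5.04 for teratomas. Differences are taken after raising lower values to the floor, so a difference with 1 array below the floor is a bound, and a member with both below has none. A difference of 1 log2 unit, or 2-fold, was the line for counting. The only spread at hand is that between probe sets of the same gene, with a pooled SD of 0.29 for knockout against control in embryoid bodies and 0.28 in teratomas. For teratoma against embryoid body it was wider, 0.66 in control and 0.65 in knockout cells. Snai1 itself, by its 1 probe set, read 4.78 in the control and 3.45 in the knockout embryoid bodies, and 3.59 and 3.44 in the teratomas, so it reached the floor only in control embryoid bodies. Whether that probe set lies in the deleted part is not given. The 3′ minus 5′ signal of Gapdh, a sign of RNA quality, was 0.17 (control) and 0.10 (knockout) in embryoid bodies against 0.65 and 0.40 in teratomas. That of beta-actin was 0.38 (control) and 0.31 (knockout) in embryoid bodies against 1.03 and 0.85 in teratomas. The part of RNA quality in the results was not tested.

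**Figure D1:**
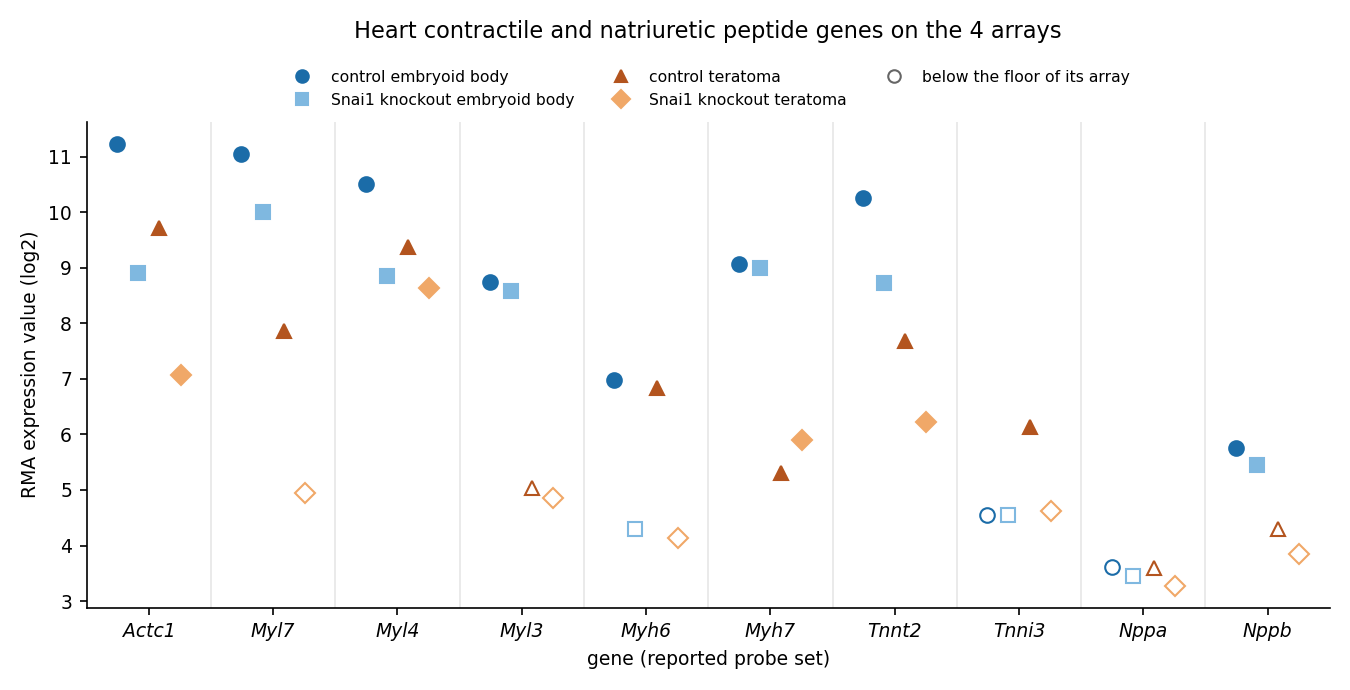
RMA expression values (log2, vertical axis) of the reported probe set of each of the 10 genes on the 4 arrays, with open symbols for values below the floor of their array. Apart from Tnni3 and Nppa, each gene reads highest in control embryoid bodies. Nppa lies below the floor throughout, and Tnni3 passes it only in the control teratoma.

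In day 5 embryoid bodies, 5 of the 8 measured members were at least 2-fold lower in the knockout: Actc1, Myh6, Myl4, Tnnt2 and Myl7. None was higher, and all 8 lay below 0, with a median difference of -1.29. Over all 12282 measured genes, 3.98% were at least 2-fold lower and 2.18% at least 2-fold higher, and the median was 0.03. Myl3, Myh7 and Nppb differed by less than 2-fold, and Tnni3 and Nppa lay below the floor on both arrays. The set therefore split within 1 tissue. Its ventricular or slow-type chains Myl3 and Myh7 were among those under 2-fold, but ventricular light chain Myl2, outside the set, differed by -2.74.

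Of the thin filament, cardiac actin Actc1 (1415927_at) read 11.24 in control and 8.90 in knockout embryoid bodies, 5.05-fold lower. Only 79 of the 12282 measured genes differed by as much or more in that direction. Troponin T, Tnnt2 (1424967_x_at), which anchors the troponin complex to tropomyosin, read 10.25 and 8.72, 2.89-fold lower. Its second probe set with signal read 10.46 and 8.55, a difference of -1.91 against -1.53, and its remaining probe set lay below the floor on all 4 arrays. Both of the Tnnt2 probe sets with signal carry shared-sequence suffixes, so the gene has no value when such probe sets are left out. Troponin I, Tnni3 (1422536_at), the inhibitory subunit that replaces slow skeletal troponin I as the heart matures, read 4.55 on both embryoid body arrays, below the floor.

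Of the thick filament, alpha myosin heavy chain Myh6 (1448826_at) read 6.99 in the control and 4.31 in the knockout, below the floor, so it was at least 4.78-fold lower. Its other probe set lay below the floor on all 4 arrays, and with the mean of both probe sets the difference was -0.25. With the floor at the 65th percentile it was -0.75. Beta myosin heavy chain Myh7 (1448553_at), its neighbour on the chromosome, read 9.07 and 9.0, a difference of -0.07. A probe set given to Myh6 and Myh7 together read 8.21 and 7.87, which is -0.34. The heavy chain genes thus differed in the knockout embryoid bodies, with the alpha chain below the floor and the beta chain at its control level within the spread between probe sets.

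Atrial regulatory light chain Myl7 (1449071_at) read 11.05 and 10.01, 2.06-fold lower and just past the 2-fold line. Atrial essential light chain Myl4 (1422580_at) read 10.50 and 8.86, 3.13-fold lower, while its other probe set was below the floor on all arrays, and the mean of both differed by -0.89. Ventricular essential light chain Myl3 (1427769_x_at) read 8.75 and 8.58, a difference of -0.17, and its other probe sets differed by -0.70 and -0.69. None of the 3 reached 2-fold. The hormone gene Nppb (1450791_at) read 5.75 and 5.45, a difference of -0.30, which is about the size of the spread between probe sets. Nppa (1456062_at) read 3.61 and 3.45, both under the floor.

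In week 6 teratomas, 5 of the 7 measured members were at least 2-fold lower in the knockout: Myl7, Actc1, Myh6, Tnnt2 and Tnni3. Of the other two, Myl4 was lower by less than 2-fold and Myh7 was higher by less than 2-fold. The median was -1.47, and 3 of the 5 lower values are bounds. Across 12197 measured genes 1.07% were at least 2-fold lower and 3.25% at least 2-fold higher, with a median of 0.06. After quantile normalization of the 4 arrays, 206 genes were lower and 374 higher, against 131 and 397 as deposited, and still 5 members were lower.

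Myl7 read 7.85 in the control teratoma and 4.95 in the knockout, below the floor, so it was at least 7.02-fold lower. Only 5 measured genes, Myl7 included, lay that low or lower. Actc1 read 9.72 and 7.07, 6.29-fold lower, with 8 genes as low or lower. Myh6 read 6.84 and 4.13, at least 3.48-fold lower, or -0.39 with the floor at the 65th percentile. Tnnt2 read 7.68 and 6.22, 2.76-fold lower, with -1.23 from its second probe set with signal and -0.93 from the mean of all 3. Tnni3 read 6.13 in the control, its only value above a floor in the series, and 4.62 in the knockout, at least 2.12-fold lower, a call that ends at the 65th percentile floor, where both arrays are below it. With differences taken from the floor, a gene can count as lower only if its control value is above it, as for these 5 genes. In the knockout teratoma, Actc1 and Tnnt2 alone among them stayed above the floor.

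Myl4 read 9.37 and 8.65, a difference of -0.73. Myh7 read 5.31 in the control and 5.91 in the knockout, a difference of 0.60 in the opposite direction, on values less than 1 log2 unit above the floor. The probe set shared by Myh6 and Myh7 read 6.20 and 5.67, a difference of -0.53. Myl3 lay just under the floor in the control, at 5.04, and at 4.85 in the knockout, and the hormone genes were below it too, Nppb at 4.30 and 3.84 and Nppa at 3.60 and 3.28.

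**Figure D2:**
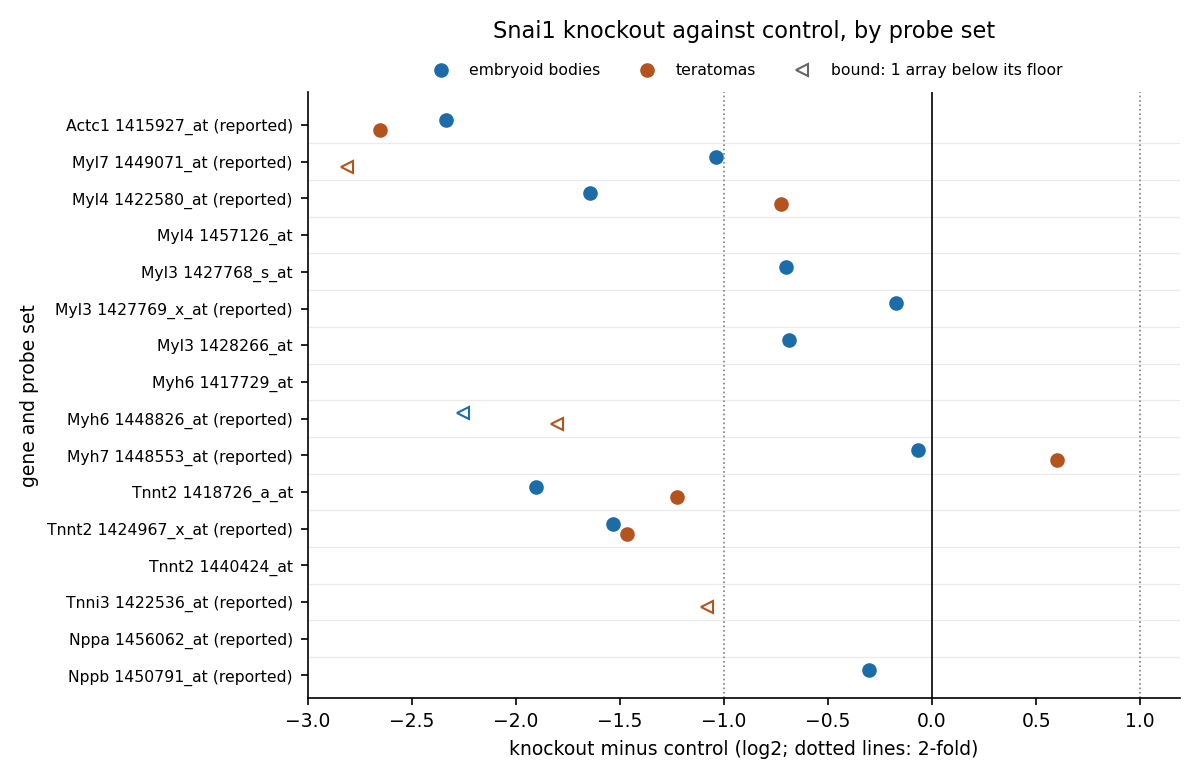
Knockout minus control (log2, horizontal axis) for each of the 16 probe sets, in embryoid bodies and teratomas, with triangles for bounds and no symbol where both arrays lay below the floor. Actc1, Myl7, Myh6 and Tnnt2 lie beyond the 2-fold line in both tissues, and Myh7 lies near 0 in embryoid bodies and to the right of it in teratomas.

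Of the 6 members measured in both tissues, 4 were at least 2-fold lower in the knockout in both: Actc1, Myl7, Myh6 and Tnnt2. Over all genes it was 26 of 11187, or 0.232%. These 4 were among 5 lower members in each tissue. The knockout differences of Actc1 and Tnnt2 were similar in size, with the teratoma value minus the embryoid body value at -0.32 and 0.07. Myl7 differed more in teratomas, by a further -1.77, and Myl4 less, by 0.92. These differences between tissues rest on 4 arrays each and were not tested. For Myl7 the extra difference shrank to -0.36 with the floor at the 65th percentile of each array, since a higher floor lowers the bound.

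Control teratoma against control embryoid body gave 6 of 9 measured members at least 2-fold lower and 1 higher, with a median of -1.51. In all 12956 measured genes, 19.0% were that much lower and 16.2% higher, with a median of -0.18. Myh7 was 13.6-fold lower, Myl3 at least 12.7-fold, Myl7 9.17-fold, Tnnt2 5.93-fold, Actc1 2.85-fold and Myl4 2.19-fold lower. Myl4 fell short of 2-fold with quantile normalization, at -0.91, and with the mean of its probe sets, at -0.92. Myh6 hardly differed, at -0.14, and Tnni3 was at least 2.67-fold higher. The chains that read lower by the widest margin thus included Myh7 and Myl3, whereas Myh6 and Tnni3, adult-type forms, kept or gained signal. By their reported probe sets, Myh7 and Myl3 also differed least between genotypes in embryoid bodies. The other Myl3 probe sets differed there by -0.70 and -0.69, more than Nppb at -0.30. Knockout teratoma against knockout embryoid body gave 5 of 7 at least 2-fold lower and none higher, with a median of -2.50, against 19.8% lower and 19.8% higher over 12936 genes. Myl7 was at least 31.3-fold lower there, Myh7 8.55-fold, and Myl4 was 1.16-fold lower.

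The tissues also differ in age, host and RNA extraction, with columns used for embryoid bodies and Trizol for teratomas, and these cannot be told apart. With array medians made equal, the median of all genes fell to -0.55 for control and -0.46 for knockout cells. The counts over all genes were then 1533 higher and 4100 lower for control cells, and 2036 and 3786 for knockout cells, against 2098 and 2456, and 2566 and 2564, as deposited. Under that scaling the members kept their signs in both comparisons, and Nppb joined the lower members of control cells, making 7 of 9. These comparisons share arrays with the knockout comparisons, so the values stand side by side and are not independent.

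**Figure D3:**
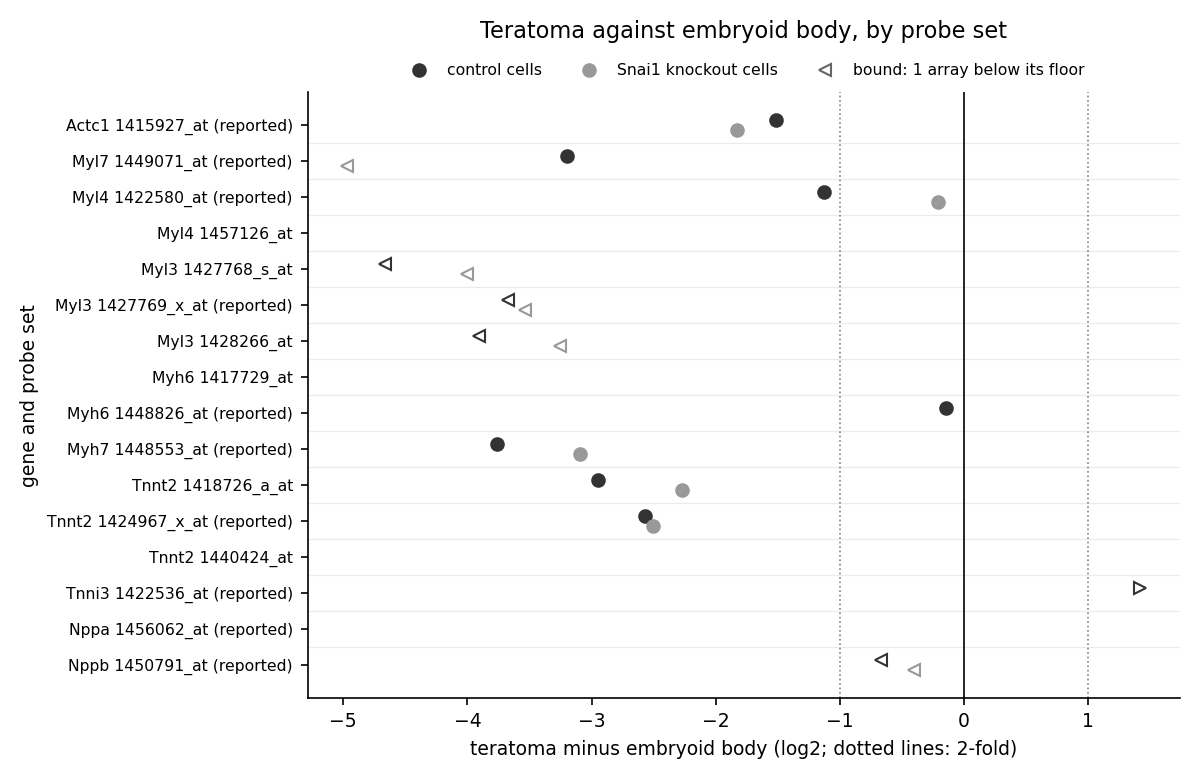
Teratoma minus embryoid body (log2, horizontal axis) for each of the 16 probe sets, in control and in Snai1 knockout cells, with triangles for bounds. Myh7, Myl3, Myl7 and Tnnt2 lie far below the 2-fold line in both lines of cells, and Tnni3 of control cells is the only point above it.

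Over the 4 arrays, Actc1 and Myh6 read in the order control embryoid body, control teratoma, knockout embryoid body, knockout teratoma, although the knockout values of Myh6 have no order below the floor and its control values differ by less than the spread between probe sets. Myl7 and Tnnt2 instead followed tissue before genotype, with both embryoid body arrays above both teratoma arrays. Myl4 had its knockout arrays lowest, and these differed by 0.21 only. In Myh7, Myl3 and Nppb both embryoid body arrays were above both teratoma arrays, and their 2 embryoid body values differed by -0.07, -0.17 and -0.30. For Myl3 this is the reported probe set only, and its other probe sets differed by -0.70 and -0.69.

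Likeness over the 4 arrays was measured as the root mean square difference between mean-centred, floored profiles, over 6562 other genes. Because 4 arrays give few distinct patterns, 236 genes lay within 0.5 log2 units of Myl4 and 2229 lay that close to Nppb. Actc1 had none within 0.5, and its nearest were Foxf1, a lateral mesoderm transcription factor gene, at 0.53, smooth muscle actin Acta2 at 0.54 and the Snail family gene Snai2 at 0.59. Tnnt2 was nearest to Snai2 at 0.25, Cmtm7 at 0.28 and cardiac troponin C, Tnnc1, at 0.29. Myl7 had 1 gene within 0.5, Nrk at 0.18. Myh6 was nearest to Pcolce, which encodes a helper of collagen processing, at 0.20, and Mbnl3 at 0.21. Among members, Myl3 and Myh7 were the closest pair by their reported probe sets, at 0.24, and likeness was not computed for the other Myl3 probe sets. However, 90 genes lay within 0.5 of Myl3 and 100 of Myh7, and Pkp2 was nearer to each, at 0.06 and 0.21.

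The other genes of heart muscle were read from a list of 32 sarcomere, calcium and muscle genes. In embryoid bodies 6 of 24 measured were at least 2-fold lower in the knockout and none higher, with a median of -0.24. Ventricular light chain Myl2 read 8.14 and 5.40, a difference of -2.74. Csrp3, a Z-disc stress sensor, differed by -2.30, and Mybpc3, cardiac myosin-binding protein C, by -2.09. The giant spring protein gene Ttn differed by -2.11 by its reported probe set. Other probe sets gave bounds of -0.58 and 0.04, each with 1 array below the floor. In teratomas 1 of 28 was lower and 4 were higher, with a median of 0.23. Troponin C, Tnnc1, was the lower one at -1.25. The oxygen store Mb read 7.92 and 10.53, a difference of 2.60, the mitochondrial creatine kinase gene Ckmt2 was at least 3.16-fold higher and Trdn, a calcium release protein, differed by 1.06. Mb, Ckmt2 and Trdn are made in skeletal as well as heart muscle.

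Of 12 genes of the natriuretic peptide pathway, 10 were measured in each tissue. Embryoid bodies had 1 at least 2-fold lower, the cyclic GMP phosphodiesterase Pde9a at -1.06, and none higher, and in teratomas none passed 2-fold in either direction. After quantile normalization Pde9a was under 2-fold and 1 gene in teratomas was lower. The clearance receptor Npr3 differed by 0.95 in embryoid bodies and by a bound of -0.90 in teratomas. The pathway median in teratomas was 0.07, or -0.03 after quantile normalization.

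Heart transcription factors did not share the contractile genes' direction in embryoid bodies, with 4 of 18 measured at least 2-fold higher and 2 lower in the knockout. Isl1, of second heart field progenitors and motor neurons, read 8.86 and 10.43, a difference of 1.57. Nkx2-5, an early cardiac regulator, read 6.20 and 7.45, a difference of 1.25, and Hey1 differed by 1.30. Hand1, of the first heart field and extraembryonic mesoderm, differed by -1.87. The median was 0.04. After quantile normalization 3 were higher and 2 lower of 19 measured, with a median of -0.17. In teratomas 1 of 11 measured was lower, Isl1 at -1.51, and none was higher, and Nkx2-5 lay below the floor on both arrays.

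A list of 9 heart muscle markers was read: Myl7, Myh6, Tnni3, Nppa, Nppb, Nkx2-5, Myl2, Mybpc3 and the calcium pump regulator Pln. Of these, 6 reached the floor in control and 5 in knockout embryoid bodies, 4 in the control teratoma and 0 in the knockout teratoma. As a median, the floor is reached by about 50% of non-control probe sets on each array. The share of all genes that reach it was not computed, here or for the marker lists below. Pln and Nppa were below the floor on all 4 arrays. The 4 in the control teratoma were Myl7, Myh6, Tnni3 and Myl2. Since 5 of the 9 markers are among the 10 genes described here, this count largely restates their values, and Myl2 is also made by slow skeletal fibres.

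Markers of the other muscle types were read beside the members. Skeletal muscle genes reached the floor for 9 of 28 in control and 7 in knockout embryoid bodies, against 21 and 20 in the teratomas. In embryoid bodies 1 of 9 measured was at least 2-fold higher, Tnnt1 of slow fibres at 2.11, and 0 were lower. In teratomas 4 of 23 were higher and 4 lower, with a median of 0.36: the adult fast chain Myh2 was at least 12.1-fold higher, while Myh4 was at least 5.41-fold lower, embryonic Myh3 differed by -2.09 and the regulator Myog by -1.37. The myogenic regulator Myod1 lay below the floor on all 4 arrays. Summed over the list on the linear scale, a sum led by its brightest probe sets and holding values below the floor, the signal was 910 in control and 1091 in knockout embryoid bodies, 11743 in the control and 15153 in the knockout teratoma. Skeletal muscle genes above the floor thus stood beside Actc1, Myl4 and Tnnt2 in both teratomas, and their part in those levels was not tested. Of smooth muscle genes, 3 of 10 measured in embryoid bodies and 6 of 11 in teratomas were at least 2-fold lower and none higher, with medians of -0.39 and -1.10. Acta2, smooth muscle actin, differed by -2.34 in embryoid bodies and -1.53 in teratomas, and Actg2 by a bound of -2.08 and by -2.69. The summed linear signal of the list was 9824 and 3082 in embryoid bodies and 7636 and 3386 in teratomas. It too was led by its brightest probe set, that of Acta2. Acta2 and Actg2 were lower in both tissues, as Actc1 was, while most measured genes of the list differed by less than 2-fold in embryoid bodies. The part of smooth muscle genes in the Actc1 difference was not tested.

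**Figure D4:**
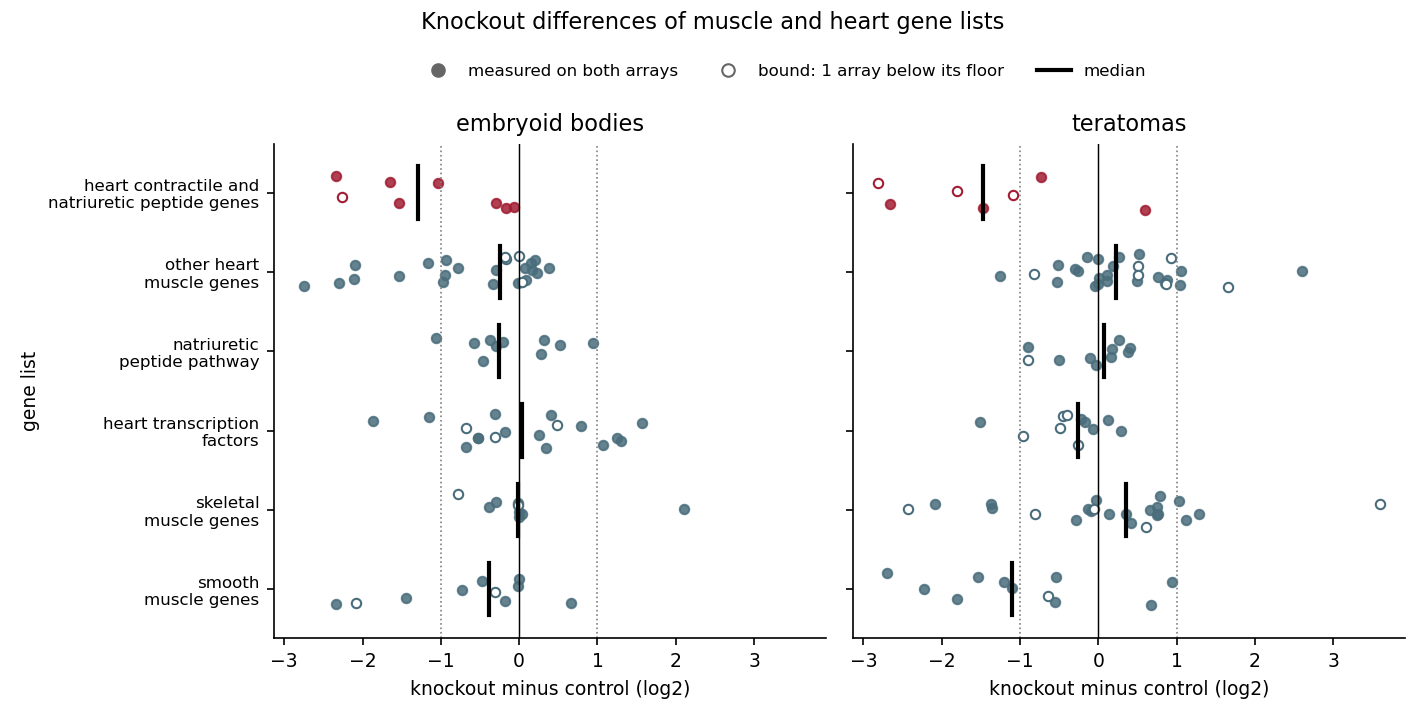
Knockout minus control (log2, horizontal axis) for the measured genes of 6 lists, in embryoid bodies on the left and teratomas on the right, with open circles for bounds and bars for medians. The 10 genes described here have medians of -1.29 and -1.47, other heart muscle genes -0.24 and 0.23, and smooth muscle genes -0.39 and -1.10.

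Marker genes of other cells were read in the teratomas too. Undifferentiated stem cell genes (Pou5f1, Nanog, Zfp42 and Dppa3) reached the floor for 2 of 4 in the control and 4 of 4 in the knockout teratoma, with a median difference of 1.42. Host leukocyte genes (Ptprc, Cd52, Ctss and Lyz2) reached it for 4 of 4 in both, with a median of 2.06, though Lyz2 differed by 0.21 only. In embryoid bodies the stem cell genes had a median of 0.31. Summed linear signals in the control and knockout teratoma were 190.4 and 578 for the stem cell genes and 1743 and 3845 for the leukocyte genes. The part of such cells in the lower heart gene values was not tested.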

How the data were processed

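RNA of 4 groups, 250 ng each per the labels' protocols, was labelled with biotin and hybridised to Affymetrix mouse arrays, 1 per group. The authors deposited log2 values per probe set, made with affy and RMA per the submitters' processing notes. Tool versions, the chip definition and whether normalization was joint are not stated in the labels or notes. RMA draws low values towards a background level and so understates differences of dim genes.

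Of 45101 probe sets, 64 controls were left out. Genes were named from the platform annotation, and the Entrez numbers of all 10 genes matched RefSeq symbols. Differences, floors, list counts, promoter windows and motif matches were computed with Python 3.11.15, pandas 2.3.3 and numpy 2.4.6, and the code was checked on artificial arrays with known shifts. The members, the lists and the alternatives were chosen with earlier results of these data known. From each list, up to 4 genes with the widest difference per tissue are named, and for each member with 2 or more measured arrays the 3 most alike genes were found, of which some are named. Alternatives changed the probe set per gene, shared-sequence probe sets, scaling, floor, fold line and list summary. Values of several-gene probe sets enter no count.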

Additional observations from a re-analysis of the deposited data

Results flagged for a closer look

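For 1 member and 10 list genes named by the same rule, the knockout difference had opposite signs in embryoid bodies and teratomas, and the difference between the tissues was not tested, since each sign rests on 2 arrays. In Myh7, Trdn, Hey1, Npr2, Pde5a and Pde2a, 1 of the signs belongs to a value within the spread between probe sets. That spread was 0.29 in embryoid bodies and 0.28 in teratomas, and Tnnt1 lay at its edge in teratomas. Teratoma minus embryoid body differences are given in log2 units. Myh7 had 0.67, from -0.07 in embryoid bodies and 0.60 in teratomas. Among other heart muscle genes, Csrp3 had 3.07, from -2.30 and 0.76, and Trdn had 1.07, from a bound of -0.01 and a value of 1.06. Isl1 had -3.08, from 1.57 and -1.51, and its other probe set gave 1.54 and -1.30. Hey1 had -1.47, from 1.30 and -0.16. In the natriuretic peptide pathway, Npr3 had -1.84, Npr2 0.84, Pde5a -1.17 and Pde2a 0.62. Npr3 had 0.95 in embryoid bodies and a bound of -0.90 in teratomas, Npr2 -0.57 and 0.27, Pde5a 0.28 and -0.89, and Pde2a -0.21 and 0.41. Other Pde5a probe sets had -0.42 and -0.01, and -0.21 and -0.86, so the sign in embryoid bodies depends on the probe set. Another Pde2a probe set had the reverse signs, 0.24 and -0.23, and the remaining Pde2a probe set had the reported signs, -0.68 and 0.62. Of skeletal muscle genes, Tnnt1 had -2.39, from 2.11 and -0.28, and Tnni2 had 0.81, from -0.39 and 0.42.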

How the results depend on the processing

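No called member changed sign under any of the alternatives run. Of 245 single-member values under an alternative, 216 moved by no more than the spread between probe sets, 29 moved further, and 14 more had no value. The spread used was that of the comparison in question, or of both knockout comparisons combined for differences between tissues. The 216 include values that could not move, so the count is no measure of robustness. Actc1, with 1 probe set above every floor used, kept -2.34 in embryoid bodies under all probe set and floor alternatives. Averaging a gene's probe sets left 3 of 8 measured members lower in embryoid bodies (median -0.71), against 345 of 11485 genes. In teratomas 3 of 6 were lower (median -1.01), against 86 of 11058 genes. Knockout teratoma against embryoid body had a median of -1.83. Myl4 and Myh6 were then under 2-fold in embryoid bodies, Tnnt2 was so in teratomas at -0.93, and Myh6 had no value there. At a 4-fold line, 2 members were lower in each tissue, against 1.01% of all genes in embryoid bodies and 0.115% in teratomas, and 0 were higher in the control teratoma against embryoid body, against 7.46%. At 1.5-fold, 1 member was higher and 6 lower in teratomas, against 10.3% and 5.05% of all genes. Shares over all genes were not computed for the other floors. A floor at the 65th percentile left 3 of 5 measured members lower in teratomas, where Myh6 differed by -0.39 and Tnni3 had no value. For control teratoma against embryoid body 0 were higher at that floor, with a median of -2.35. Myh6 then differed by -0.75 in embryoid bodies. A floor at the 25th percentile gave medians of -1.10 in teratomas and -1.83 for knockout teratoma against embryoid body. Without a floor they were -0.67 in embryoid bodies, -1.10 in teratomas and -1.72. Counting probe sets gave a median of -2.76 for control teratoma against embryoid body. It gave 8 lower for knockout, a count for which no share over all probe sets was computed. Signal over background limits Nppa (above the floor on 0 arrays), Tnni3 (1) and Myl3, Myh6 and Nppb (2 each).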
